A study of Mus musculus with 16 samples.

Results

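The genes described here mark tissue macrophages and microglia, and they were followed in RNA from mouse retinal pigment epithelium (RPE). There are 10 of them among the 51912 genes measured. They are Cd209a, Cd163, Mrc1, Lyve1, F13a1, Adgre1, Csf1r, Cx3cr1, Aif1 and Cd68. Cd209a was chosen by its p for knockout against wild type in untreated mice, which was the lowest of all genes, and the other 9 were added as known macrophage genes, to see whether they moved with it. The values of Cd209a in that comparison are therefore a description, and no test is given for any of the 10 genes there.

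The study compared wild-type C57BL/6 mice with mice lacking Sucnr1, the succinate receptor gene, under oxidative stress from hydroquinone. All animals were males of 40 weeks. Each of the 4 groups holds 4 libraries of 1 eye each: untreated wild type, wild type given hydroquinone, untreated knockout, and knockout given hydroquinone. The sample titles give 2, 4, 3 and 4 mice for them, with both eyes of 3 mice sequenced, whereas the protocol text speaks of 4 animals a group, and this conflict was not settled. The RPE sheet was lifted off the choroid before RNA extraction, so that cells of neighbouring layers can be carried along. The knockout is in the whole animal as far as the labels say, with no cell type named.

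Macrophages of the eye fall into several populations. Microglia live in the neural retina and the optic nerve, while the choroid, sclera and ciliary body hold perivascular and connective tissue macrophages that carry lectins and scavenger receptors. Their survival depends on the receptor Csf1r and its ligands, and the factor PU.1, made from Spi1, binds control regions of many of their genes. A bulk library cannot separate fewer cells of a type from less RNA per cell.

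Library totals ran from 21113549 to 35332444 counts, and between 17904 and 24477 genes had a count. The RPE markers were present in every library, with 12 marker genes that together gave 23145 to 36596 CPM, counts scaled to the library total. Rod photoreceptor markers were present too and varied far more, with 15 genes that together gave 266 to 24814 CPM. Sucnr1 had 0 to 17 counts per library, also 0 in 1 untreated and 3 hydroquinone-treated wild-type libraries, so that it does not check the labels. The library identifiers come with or without a letter, which may mark preparation batches, and this form was balanced in 3 groups but 1 with and 3 without in wild type given hydroquinone.

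Promoters of the genes were read to show what the genes have in common in sequence. RefSeq (GRCm38.p6) gave the 250 bases before the start of 7 of the 10 genes, and Lyve1, Adgre1 and Csf1r were not matched. The letters GAGGAA, the PU box recognised by PU.1, were searched on both strands (TTCCTC on the other strand). They were found in 4 of the 7 windows, those of Mrc1, F13a1, Cd68 and Aif1, and in 23.3% of all 32851 windows of that length. Mrc1 had 3 matches, which began 180, 167 and 35 bases before the start, all on the opposite strand. F13a1 had 1 match at 66 bases, Cd68 had 1 at 225 bases and Aif1 had 1 at 7 bases before the start. No match was found in the windows of Cd209a, Cd163 and Cx3cr1, which says only that these letters are not in them. Across libraries Cd163, without a match, varied with F13a1 (r = 0.91) and Mrc1 (r = 0.75). Aif1, with a match, had an r of 0.56 with Mrc1. The windows of Mrc1 (chr2:14229164-14229413, plus strand), F13a1 (chr13:37050245-37050494, minus strand) and Cd68 (chr11:69666171-69666420, minus strand) are shown because they hold a match and Mrc1 varied across libraries with F13a1 (r = 0.81) and with Cd68 (r = 0.82), and that of Cd209a (chr8:3748985-3749234, minus strand) because the set was built around this gene. Each is written 5′ to 3′ on the gene's strand, with matches to the PU box in capitals.
Mrc1: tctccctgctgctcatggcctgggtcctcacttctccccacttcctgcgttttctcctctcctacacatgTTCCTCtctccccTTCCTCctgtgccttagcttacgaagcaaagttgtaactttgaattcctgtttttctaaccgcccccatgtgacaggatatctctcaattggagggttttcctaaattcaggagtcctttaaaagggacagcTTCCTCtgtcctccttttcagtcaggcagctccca
F13a1: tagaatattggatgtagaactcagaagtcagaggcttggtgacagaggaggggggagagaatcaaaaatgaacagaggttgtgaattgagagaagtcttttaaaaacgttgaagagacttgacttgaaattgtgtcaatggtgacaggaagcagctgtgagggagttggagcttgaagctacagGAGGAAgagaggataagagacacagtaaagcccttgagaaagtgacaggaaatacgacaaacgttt
Cd68: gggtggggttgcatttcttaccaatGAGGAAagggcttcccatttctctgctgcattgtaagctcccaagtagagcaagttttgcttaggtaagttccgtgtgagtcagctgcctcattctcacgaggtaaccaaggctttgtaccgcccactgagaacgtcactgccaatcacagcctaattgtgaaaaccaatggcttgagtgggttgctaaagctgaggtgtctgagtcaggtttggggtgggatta
Cd209a: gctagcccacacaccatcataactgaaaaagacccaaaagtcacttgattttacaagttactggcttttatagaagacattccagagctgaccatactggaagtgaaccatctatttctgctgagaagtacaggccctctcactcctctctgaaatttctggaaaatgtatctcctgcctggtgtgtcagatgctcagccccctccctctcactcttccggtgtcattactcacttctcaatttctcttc

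Every one of the 10 genes had counts in all 16 libraries and passed the minimum of a mean of 1 CPM, as 15380 genes did. Per kilobase of exon, Cd68 (45.6 ± 14.3 CPM per kb, SD over 16 libraries) and Csf1r (42.6 ± 7.25) had the highest levels. Cd68 was the higher of the pair in 10 of 16 libraries, so that their order is not resolved. Adgre1 came next at 9.80 ± 3.50 CPM per kb, below Csf1r in 16 of 16 libraries. Aif1 (5.51 ± 2.22), Cx3cr1 (4.24 ± 1.56) and Mrc1 (3.46 ± 1.19 CPM per kb) followed in an order that held in 12 of 16 and 10 of 16 libraries. Lyve1 (2.58 ± 0.97) and F13a1 (2.50 ± 0.99 CPM per kb) were alike, and F13a1 was above Cd163 (1.76 ± 0.81) in 16 of 16 libraries. Cd209a was lowest at 0.93 ± 0.49 CPM per kb and rested on 10 to 78 counts per library. It was below Cd163 in 14 of 16 libraries.

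**Figure D1:**
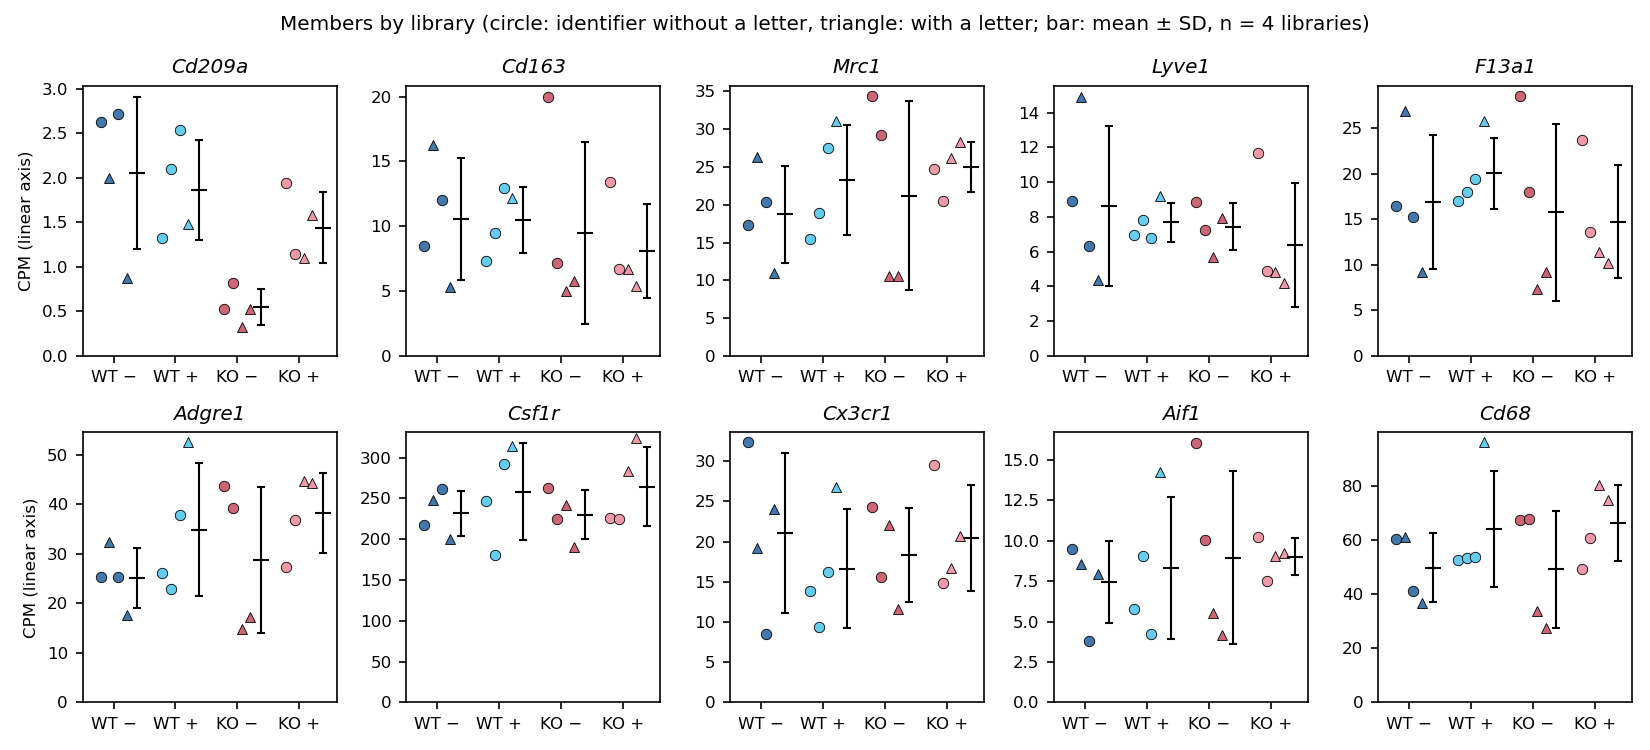
CPM of the 10 genes in each of the 16 libraries on linear axes from 0, by group (WT wild type, KO knockout, − untreated, + hydroquinone), with the mean and SD of 4 libraries beside the points. The 4 untreated knockout libraries lie below the untreated wild-type ones for Cd209a, while for the other 9 genes the groups overlap.

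The lectin Cd209a, a C-type lectin of the DC-SIGN family that binds sugars on microbes and cells, was low in untreated knockout mice. Its levels were 2.63, 1.99, 2.71 and 0.87 CPM in untreated wild type and 0.53, 0.82, 0.32 and 0.52 CPM in untreated knockout, from 78, 51, 66 and 20 counts against 11, 25, 10 and 14. The highest knockout library was just below the lowest wild-type library, so the groups did not overlap, and the log2 fold change was -1.90 (SE 0.41). Groups that did not overlap, with the knockout lower, were seen for 0.67% of the 15380 genes tested, and nothing is read from this here because the choice of the gene used it. The highest and the lowest wild-type value, 2.71 and 0.87 CPM, came from the eyes of 1 mouse.

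Under hydroquinone the genotypes overlapped. Cd209a was at 1.32, 2.10, 2.54 and 1.49 CPM in wild type and at 1.94, 1.14, 1.10 and 1.58 CPM in knockout. This comparison uses other libraries than those that chose the gene, and there the log2 fold change was -0.37 (SE 0.39, 95% interval -1.20 to 0.46, adjusted p = 1.00). The test of whether the genotype difference depends on hydroquinone shares the untreated libraries with the choice of the gene, so that only its value is given, 1.53 (SE 0.56). Within the knockout, the untreated libraries lay below all 4 treated ones, with a log2 fold change of 1.39 (SE 0.41) for hydroquinone, while in wild type it was -0.14 (SE 0.39). The same order was seen for 1.18% of genes, and nothing is read from it because the low untreated knockout libraries chose the gene.

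The other 9 genes overlapped between the untreated genotypes and differed less than Cd209a. Their log2 fold changes lay between -0.22 (Lyve1, SE 0.37) and 0.26 (Aif1, SE 0.43), with overlap for each of the 9 (either direction, 1.05% of all genes did not overlap), and the median of the 9 was -0.02, beside 0.01 over all genes tested. Of the 9 genes, 6 were lower in the knockout, beside 46.8% of all genes tested. With Cd209a, whose direction follows from its choice, the count was 7 of 10. That count rested on single libraries. It was 10 of 10 in the libraries with a letter and 2 of 10 in those without. It was 10 of 10 without untreated knockout replicate 1, 2 of 10 without untreated wild-type replicate 2, 4 of 10 without untreated knockout replicate 3, 3 of 10 without untreated knockout replicate 4 and 3 of 10 without both of these knockout libraries. For Cd209a, whose direction here follows from its choice, the log2 fold change was -2.17 to -1.60 in 30 of the 31 alternatives run and -0.94 on the log2(CPM + 1) scale of limma, which compresses low levels.

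Wider lists of macrophage genes, none of them among the 10, had mostly lower values in untreated knockout, with medians nearer 0 than Cd209a. Of 25 pan-macrophage genes 20 were lower, with a median log2 fold change of -0.14. The count was 11 of 13 for microglia genes (median -0.16), 9 of 10 for monocyte and dendritic cell genes (-0.26), 10 of 13 for activation genes (-0.35) and 13 of 19 for perivascular and connective tissue macrophage genes (-0.04), a list that holds Cd209b, Cd209d, Cd209f and Cd209g. Of these 80 genes 0 passed edgeR's test, beside 0% of all genes, and 4 had an unadjusted p under 0.05, beside 1.32%. DESeq2 gave 0 and 4. Of edgeR's 4, 3 were perivascular genes, with Cd209d and Cd209f among them, and 1 was an activation gene. The pan-macrophage, microglia, and monocyte and dendritic cell lists held 0. Nothing is read from these counts, because Cd209a was chosen in this comparison.

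These counts rested on the same libraries as that of the 10 genes. Without untreated knockout replicates 3 and 4 they were 3 of 25 pan-macrophage, 5 of 13 microglia, 1 of 10 monocyte and dendritic cell, 8 of 13 activation and 7 of 20 perivascular genes. For the pan-macrophage genes, 25 of 25 were lower in libraries with a letter and 5 of 25 in those without. Leaving out 1 library gave 25 of 25 without untreated knockout replicate 1, 13 of 25 without replicate 3 and 10 of 25 without replicate 4. The 2 libraries with the fewest genes detected were untreated knockout replicate 1 and untreated wild-type replicate 3. Without both, 11 of 13 microglia and 13 of 13 activation genes were lower. Adipocyte markers were lower too, 8 of 8 with a median of -2.13, but 6 of 7 with a median of -0.34 without untreated wild-type replicate 2. Their part in the macrophage values was not tested. Across the 10 genes the r with the adipocyte score ran from -0.01 (Csf1r) to 0.91 (Lyve1), with 0.14 for Cd209a.

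Untreated knockout replicates 3 and 4 had the lowest pan-macrophage levels of their group. The score of 25 pan-macrophage genes that are not among the 10, as mean log2(CPM + 1), was 4.48 and 4.26 in these libraries and 5.34 and 5.21 in replicates 1 and 2. This did not extend to each macrophage gene, since replicate 3 had 22.0 CPM of Cx3cr1 and 242 CPM of Csf1r, and its microglia score of 4.05 was above the 3.73 of untreated wild-type replicate 3. None of the 25 was at 0 in a whole group, and their summed level ran from 1506 to 3746 CPM in untreated knockout and from 1895 to 3433 CPM in untreated wild type. Both low libraries carry a letter in their identifiers, and they were also rich in rod transcripts, with rod scores of 7.29 and 9.76 against 3.52 and 4.09. The part of dissection or preparation in these values was not tested. Cd209a relative to the 25 genes differed by -1.67 on the log2 scale between the untreated genotypes, from which nothing is read because these libraries chose the gene.

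Other genes of the Cd209 cluster were described beside Cd209a, a choice made after their values were seen. Cd209f was at 11.2, 12.9, 12.9 and 4.18 CPM in untreated wild type and at 5.93, 4.48, 1.67 and 2.80 CPM in untreated knockout. Only the lowest wild-type library, replicate 4, reached into the knockout range, and the log2 fold change was -1.47 (SE 0.40). Cd209d (-1.28, SE 0.54), Cd209b (-0.82, SE 0.56) and Cd209g (-0.43, SE 0.59) were lower on average too, with overlap. Wild-type replicate 4, the lowest of its group for Cd209a, was also the lowest for Cd209b, Cd209d and Cd209f. Under hydroquinone the log2 fold changes for knockout against wild type were -0.76 for Cd209f (SE 0.39, unadjusted p = 0.073, adjusted p = 1.00), -0.70 for Cd209b, -0.62 for Cd209g and -0.50 for Cd209d, and none passed the test. Cd209c and Cd209e had 0 to 11 counts per library and were not compared. Cd209f and Cd209g share 646 of their 50-base stretches, 29.8% and 16.6% of each, so that reads can be split between them, while Cd209a shares none with another gene.

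**Figure D2:**
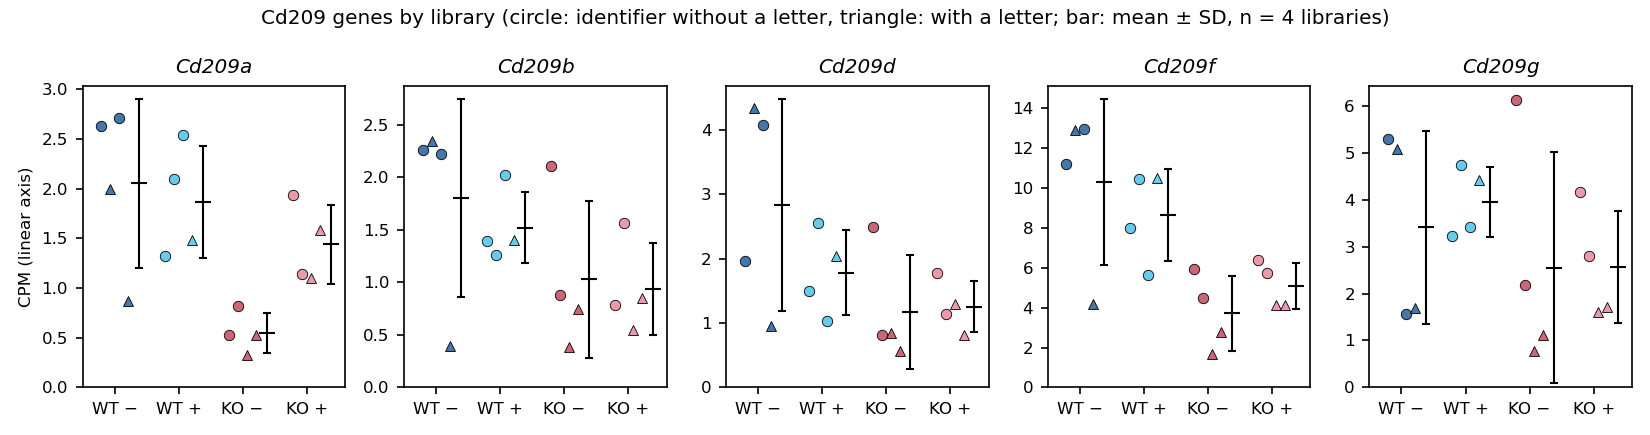
CPM of 5 genes of the Cd209 cluster by library and group on linear axes from 0, with the mean and SD of 4 libraries. Cd209f shows the same order as Cd209a without hydroquinone, except that wild-type replicate 4 at 4.18 CPM lies inside the knockout range of 1.67 to 5.93 CPM.

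Scavenger receptor Cd163, which takes up haemoglobin bound to haptoglobin, varied within the groups more than between them. It was at 8.50, 16.3, 12.0 and 5.31 CPM in untreated wild type, 7.33, 9.49, 12.97 and 12.1 CPM in wild type with hydroquinone, 19.9, 7.16, 5.02 and 5.75 CPM in untreated knockout, and 13.4, 6.72, 6.69 and 5.42 CPM in knockout with hydroquinone. In each knockout group 1 library was high and 3 were low. Under hydroquinone the knockout differed by a log2 fold change of -0.38 (SE 0.45, 95% interval -1.33 to 0.58, adjusted p = 1.00).

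Mannose receptor Mrc1, which clears glycoproteins, was at 17.3, 26.3, 20.4 and 10.9 CPM in untreated wild type and 34.4, 29.3, 10.5 and 10.6 CPM in untreated knockout. The knockout libraries formed a high pair and a low pair that enclosed the wild-type values. With hydroquinone Mrc1 was at 15.4, 18.9, 27.5 and 31.0 CPM in wild type and 24.8, 20.5, 26.1 and 28.4 CPM in knockout. The genotype difference there was 0.10 (SE 0.37, adjusted p = 1.00). F13a1, the catalytic subunit of coagulation factor XIII and a product of resident macrophages, showed the same high and low knockout libraries at 28.5, 18.0, 7.34 and 9.19 CPM without hydroquinone. With hydroquinone its levels were 17.0, 17.9, 19.4 and 25.7 CPM in wild type and 23.8, 13.6, 11.4 and 10.2 CPM in knockout. Its log2 fold change of -0.44 (SE 0.41, adjusted p = 1.00) was the lowest of the 10 genes under hydroquinone.

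Lyve1 encodes a hyaluronan receptor of connective tissue macrophages that lymphatic endothelium carries as well. It was at 8.94, 14.9, 6.33 and 4.35 CPM in untreated wild type, 6.93, 7.82, 6.78 and 9.21 CPM in wild type with hydroquinone, 8.85, 7.26, 5.67 and 7.95 CPM in untreated knockout and 11.7, 4.86, 4.82 and 4.18 CPM in knockout with hydroquinone. All groups overlapped, and the highest library of the study was untreated wild-type replicate 2.

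The receptors of the macrophage growth and chemokine signals varied only in part with Mrc1 and Cd163. Across libraries Csf1r had an r of 0.57 with Mrc1 and 0.28 with Cd163, and Cx3cr1 had 0.19 and 0.18. Csf1r, the receptor for Csf1 and Il34, was the steadiest of the 10 genes, with the highest library 1.80 times the lowest. It was at 218, 248, 261 and 201 CPM in untreated wild type, 246, 180, 292 and 315 CPM in wild type with hydroquinone, 262, 225, 242 and 191 CPM in untreated knockout and 226, 224, 283 and 323 CPM in knockout with hydroquinone. The opposite-strand gene Hmgxb3 and the same-strand microRNA gene Mir6983 together cover 15.1% of its exon bases. The strand setting of the counting is not given in the sources used here. Cx3cr1, the fractalkine receptor of microglia and monocytes, was at 32.4, 19.2, 8.55 and 24.0 CPM in untreated wild type, 13.9, 9.40, 16.3 and 26.8 CPM in wild type with hydroquinone, 24.2, 15.6, 22.0 and 11.6 CPM in untreated knockout and 29.6, 14.8, 16.7 and 20.7 CPM in knockout with hydroquinone. Its range was widest in untreated wild type, and all groups overlapped. The ligands showed no called difference: for hydroquinone averaged over genotype the log2 fold changes were -0.01 (SE 0.11) for Csf1, -0.17 (SE 0.18) for Il34 and 0.18 (SE 0.12) for the fractalkine gene Cx3cl1, and 0 of the 6 ligand genes tested passed.

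Of the general macrophage genes, Adgre1 and Cd68 were highest in wild-type hydroquinone replicate 4 and lowest in untreated knockout replicates 3 and 4. Adgre1, an adhesion receptor on the macrophage surface, was at 25.3, 32.3, 25.3 and 17.5 CPM in untreated wild type, 26.2, 22.9, 37.9 and 52.5 CPM in wild type with hydroquinone, 43.6, 39.2, 14.8 and 17.2 CPM in untreated knockout and 27.4, 36.8, 44.7 and 44.2 CPM in knockout with hydroquinone. Cd68, a glycoprotein of lysosomes, was at 60.4, 61.2, 41.2 and 36.7 CPM in untreated wild type, 52.9, 53.6, 53.8 and 96.4 CPM in wild type with hydroquinone, 67.5, 67.9, 33.9 and 27.4 CPM in untreated knockout and 49.3, 60.7, 80.3 and 74.8 CPM in knockout with hydroquinone. Both genes had 2 high and 2 low untreated knockout libraries, and the treated knockout libraries lay between or above them. Aif1, which encodes the actin-binding protein IBA1, was at 9.51, 8.56, 3.78 and 7.97 CPM in untreated wild type, 5.79, 9.03, 4.25 and 14.2 CPM in wild type with hydroquinone, 16.1, 10.0, 5.54 and 4.18 CPM in untreated knockout and 10.2, 7.53, 9.06 and 9.25 CPM in knockout with hydroquinone.

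The eyes of 1 mouse could differ as much as mice did. In the knockout mouse with both eyes sequenced, replicates 1 and 3, the left eye was higher for each of the 10 genes, by 3.97 times for Cd163, 3.88 times for F13a1, 3.27 times for Mrc1 and 2.94 times for Adgre1, but by 1.08 times for Csf1r and 1.10 times for Cx3cr1. The left-eye library, replicate 1, had the lowest total of the study and the fewest genes detected, 17904 against 23217 in the right eye. In the 2 wild-type mice the ratios of the higher to the lower eye ran from 1.01 to 1.91 (median 1.42) and from 1.13 to 3.11 (median 1.76). The eyes of these mice also differ in the form of their identifiers, so that eye and possible preparation batch cannot be told apart.

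Hydroquinone did not change any of the 9 genes without Cd209a past the threshold of an adjusted p of 0.05 in edgeR's quasi-likelihood test. Cd209a is left out of the counts that share the untreated libraries with its choice. In wild type 0 of the 9 passed, beside 0.0065% of all genes tested, and 0 had an unadjusted p under 0.05, beside 4.28%. In knockout 0 of the 9 passed, beside 0.0455% of all genes, and 0 had an unadjusted p under 0.05, beside 2.96%. Averaged over genotype 0 of the 9 passed, beside 0.0845% of all genes, and again 0 had an unadjusted p under 0.05, beside 5.72%. The highest of the 9 values were 0.44 for Adgre1 (SE 0.25, 95% interval -0.08 to 0.97, adjusted p = 0.909) and 0.40 for Cd68 (SE 0.22, -0.06 to 0.86, adjusted p = 0.907), and the lowest was -0.19 for Lyve1 (SE 0.26, -0.75 to 0.36, adjusted p = 0.941). For knockout against wild type under hydroquinone 0 of 10 passed, beside 0% of all genes. At an unadjusted p under 0.05 there were 643 genes (4.18%), with 0 of the 10 among them. For the interaction 0 of the 9 passed, beside 0% of all genes, and 296 genes (1.92%) had an unadjusted p under 0.05, with 0 of the 9 among them. DESeq2 called 0 of these genes in each of these 5 comparisons as well.

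**Figure D3:**
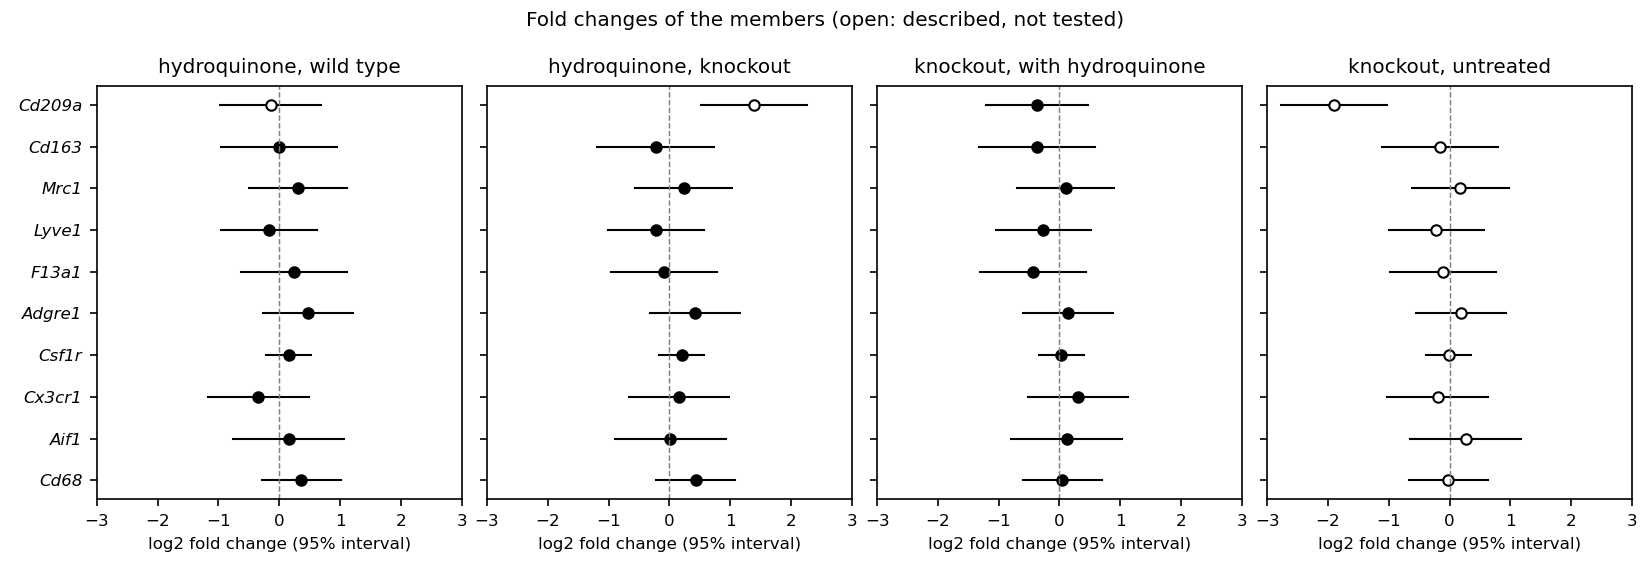
Log2 fold changes of the 10 genes with 95% intervals from the edgeR model for hydroquinone in each genotype and for knockout against wild type with and without hydroquinone. Open points are described without a test, and every interval of the other 9 genes includes 0.

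The direction for hydroquinone depended on the form of the library identifier. In libraries with a letter, with 1 treated wild-type library assumed to vary like the other groups, the average log2 fold changes were 1.28 for Adgre1, 1.16 for Cd68 and 1.05 for Mrc1. In libraries without a letter they were -0.10, -0.12 and -0.19. With the form as a covariate they were 0.45, 0.40 and 0.29. In libraries with and without a letter Cd209a was at 0.85 and 0.37. Nothing is read from this because the low untreated knockout libraries chose the gene. Rod markers fell on average with hydroquinone without passing the test, 15 of 15 lower with a median of -0.56, and with the rod score as a covariate the value of Adgre1 was 0.32 and that of Cd68 0.28.

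The same wider lists were set beside the 10 genes for hydroquinone. Of 25 pan-macrophage genes, 23 were higher with hydroquinone averaged over genotype, with a median log2 fold change of 0.32 beside 0.00 over all genes, and 0 passed the test. The 3 most abundant were Lyz2 (lysozyme, 0.44, SE 0.24), Ctss (the protease cathepsin S, 0.47, SE 0.22) and Mpeg1 (perforin-2, 0.48, SE 0.25), near Adgre1 and Cd68. Of 10 monocyte and dendritic cell genes tested, 8 were higher, with a median of 0.56, and 6 had an unadjusted p under 0.05, beside 5.72% of all genes, while 0 passed. Lymphocyte markers moved with them, 5 of 5 tested higher with a median of 1.28, 4 at an unadjusted p under 0.05 and 0 called, and their part was not tested. Among the 6 were the antigen presentation genes Cd74 (0.67, SE 0.23, adjusted p = 0.808) and H2-Aa (0.64, SE 0.23, adjusted p = 0.823). Of 19 perivascular and connective tissue macrophage genes tested, the class of Cd163, Mrc1 and Lyve1, 13 were higher and 6 lower with a median of 0.24, and 0 passed. The chemokine gene Ccl8 was furthest from 0 among these, at 1.25 ± 0.61 CPM in untreated and 6.24 ± 2.92 CPM in treated wild type (SD, n = 4 libraries). Its log2 fold change there was 2.31 (SE 0.49, adjusted p = 0.440), with the treated group higher without overlap, as for 1.13% of genes, and DESeq2 called it. For microglia genes 9 of 13 tested were higher (median 0.13) and for activation genes 10 of 13 (median 0.31), with 0 called in each. These list counts are not given by the form of the identifier. The pan-macrophage score was 4.26 and 4.48 in untreated knockout libraries with a letter and 5.21 and 5.34 in those without. It was 5.09 to 5.38 in treated knockout. Its highest value, 5.74, was in wild-type hydroquinone replicate 4, which carries a letter.

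Across the 16 libraries the 10 genes did not vary as 1 block. Correlations were computed on log2(CPM + 1) with group means removed, over 16 libraries from 13 mice that share depth and composition effects, and are given as a description. The median Pearson's r of the 45 pairs was 0.44. It was 0.78 in libraries with a letter and 0.22 in those without. These hold 2, 1, 2 and 2 libraries a group with a letter and 2, 3, 2 and 2 without. With group means removed, so few libraries leave each r poorly determined. Adgre1, Mrc1 and Cd68 varied together (Adgre1 with Mrc1 0.92, Adgre1 with Cd68 0.91), and Cd163 varied with F13a1 (0.91) and Lyve1 with F13a1 (0.79). Mrc1 also varied with F13a1 (0.81) and Cd163 (0.75), so these sets were not separate. Csf1r varied with Adgre1, Mrc1 and Cd68 to a lesser degree (0.66, 0.57 and 0.54) and not with Lyve1 (-0.06). Cx3cr1 varied most with Aif1 (0.62) and little with Csf1r (0.28). Cd209a had an r of 0.48 with Mrc1, 0.47 with Cd163 and 0.44 with F13a1, near the median of the pairs. Its r was 0.14 with Cd68, 0.31 with the mean of the other 9 genes and 0.10 with the pan-macrophage score. Without the 2 libraries farthest from the median of Cd209a, the values for Mrc1, Cd163 and F13a1 were 0.35, 0.30 and 0.33. Without the 2 farthest from the median of each measure, the other 9 genes gave 0.53 and the pan-macrophage score 0.25.

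**Figure D4:**
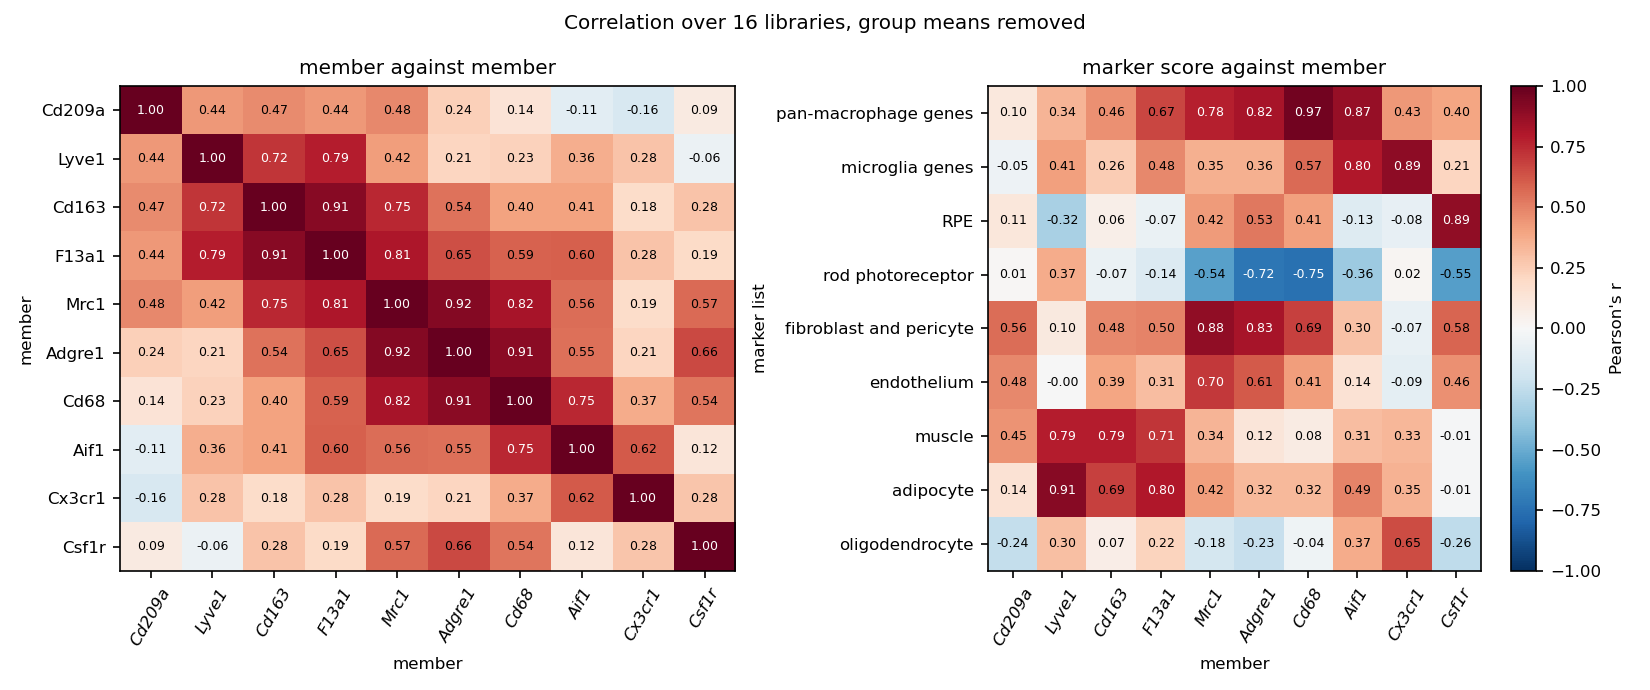
Pearson's r over 16 libraries with group means removed, between the 10 genes (left) and between each gene and the scores of marker lists (right), on a colour scale from -1 to 1. Adgre1, Mrc1 and Cd68 vary together, as do Lyve1, Cd163 and F13a1, and Mrc1 joins the 2 sets (F13a1 0.81, Cd163 0.75). Csf1r and Cx3cr1 follow the RPE and microglia scores.

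The genes differed in the marker lists they followed most closely, with some lists shared. The pan-macrophage score had an r of 0.82 with Adgre1 and 0.78 with Mrc1. Cd68 followed the pan-macrophage score (r = 0.97, and 0.95 without the 2 libraries farthest from the median score), and Laptm5, a lysosomal protein of blood cells, was the gene most like it (0.98). For Adgre1 the nearest gene was the complement receptor gene C3ar1 (0.99), and for Aif1 it was the complement gene C1qa (0.96). Mrc1 was nearest to Gimap4 (0.95) and followed the score of fibroblast and pericyte markers at 0.88 (0.84 without the 2 farthest libraries). That score also had an r of 0.83 with Adgre1 and 0.69 with Cd68. Adgre1 and Cd68 were lower where rod markers were higher, with r of -0.72 and -0.75 (-0.70 and -0.67 without the 2 farthest).

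Lyve1, Cd163 and F13a1 varied both with macrophage lists and with markers of tissue outside the inner layers of the eye. The gene most like Lyve1 was the adipocyte gene Adig (0.95), and a list of 8 adipocyte markers chosen after this was seen had an r of 0.91 with it (0.82 without the 2 farthest libraries). The adipocyte score ran from 0.57 to 5.61 over the libraries, and untreated wild-type replicate 2 was highest for the score as well as for Lyve1. Cd163 was nearest to Tmem182 (0.91) and followed the score of 6 muscle markers at 0.79, which fell to 0.56 without the 2 farthest libraries. Its r with the Cd209 genes was higher, 0.84 (0.80 without the 2 farthest), and F13a1 was its second nearest gene (0.91). F13a1 was nearest to Ugp2 (0.93). It followed the Cd209 genes at 0.90 (0.89 without the 2 farthest) and perivascular macrophage genes at 0.87 (0.79), above its 0.80 for the adipocyte and 0.71 for the muscle score. For Lyve1 the r with the Cd209 genes was 0.76. None of the adipocyte or muscle markers was at 0 throughout a group, and the part of carried-over tissue in the levels of Lyve1, Cd163 and F13a1 was not tested.

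Cx3cr1 followed the microglia score (r = 0.89, 0.83 without the 2 farthest libraries), and P2ry13, a nucleotide receptor gene of microglia, was the gene most like it (0.94). It also moved with oligodendrocyte markers, at 0.65, which fell to 0.45 without the 2 farthest libraries. These 6 markers summed to 155 to 10064 CPM in untreated wild type. Wild-type replicate 3, with the lowest oligodendrocyte score of that group, had the lowest Cx3cr1 level of the study.

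Csf1r followed the RPE score (r = 0.89, 0.88 without the 2 farthest libraries) more closely than the pan-macrophage score (0.40, 0.17 without the 2 farthest). With single macrophage genes its r ranged from 0.66 for Adgre1, 0.57 for Mrc1 and 0.54 for Cd68 to -0.06 for Lyve1. The gene most like it was Inpp5k, a phosphatase gene at 812 CPM on average (0.97). Its r with the overlapping gene Hmgxb3 was 0.33. Cd209a had no r above 0.60 with a marker list, reached with the Cd209 genes, a list that holds it. Without the 2 libraries farthest from the median score, that r was 0.24. The r of Cd209a with the fibroblast and pericyte score was 0.56. Its 5 most alike genes were Ovca2 (0.84), Gm30122 (0.81), Naa10 (0.79), Mphosph8 (0.79) and Rbm39 (0.79), none of which is on the macrophage lists, and at 10 to 78 counts a library these values carry counting error.

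**Figure D5:**
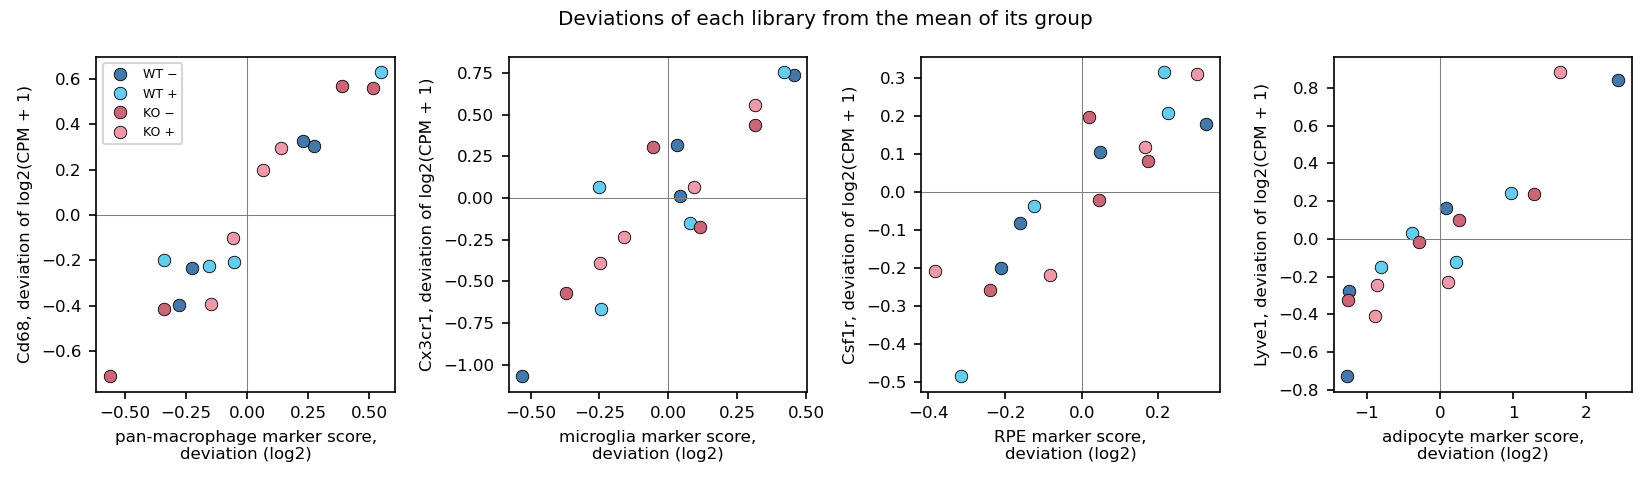
Deviation of each library from the mean of its group for 4 genes (log2(CPM + 1), vertical) against the deviation of a marker score (mean log2(CPM + 1), horizontal), coloured by group. Cd68 follows pan-macrophage markers, Cx3cr1 microglia markers, Csf1r RPE markers and Lyve1 adipocyte markers, with r of 0.97, 0.89, 0.89 and 0.91.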

How the data were processed

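Read counts per Ensembl mouse gene were deposited, for 51912 genes in 16 libraries. The table's name announces FPKM, but 100% of the deposited values are whole and library totals differ, so they were used as counts. STAR, Cufflinks, DESeq2 and mm10 are named per the submitters' processing notes, and their roles, their versions and the strand setting are not given in the sources used here. Symbols and positions came from GENCODE vM21 (GRCm38), which matched 51633 identifiers.

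A mean of 1 CPM, taken on unscaled library totals, was required (15380 genes, 99.8% of counts). These were fitted in R 4.3.3 by edgeR 4.0.16, with no change to the counts: TMM scaling, 4 group means, the quasi-likelihood F test, Benjamini-Hochberg adjustment over all genes tested, threshold 0.05. SEs were derived from the F statistic. The fit was tested on simulated counts. Alternatives used limma 3.58.1 and DESeq2 1.42.0, other scalings and filters, batch and rod covariates, and 16 fits that each left out 1 library. The eyes of a mouse were fitted as separate libraries, with a consensus correlation of -0.020 between them, and p-values measure the spread between libraries. No pair of a group was a copy (chi-square per degree of freedom at least 20.3).

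The 10 members and the gene lists were chosen with earlier results of these data known. Named are the members, the most abundant genes of macrophage lists, genes called, and the genes most alike by Pearson's r (5 for Cd209a, 1 for each other member). Others, such as the remaining Cd209 genes, Il34, Ccl8 and the adipocyte list, were chosen after their values were seen. Before TMM scaling, totals of 21113549 to 35332444 counts put 3 counts at 0.085 to 0.142 CPM.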

Additional observations from a re-analysis of the deposited data

Results flagged for a closer look

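A sample stood apart from the other 3 of its group in 7 of 120 sets of 4 libraries, where chance gives about 1 in 20. The measure is the gap to the nearest library divided by the range of the group, on log2(CPM + 1), set against Dixon's 95% critical value. Lyve1 in knockout with hydroquinone stood out in replicate 1 (0.862), at 3.67 against 2.37 to 2.55 in the others. In the same library the muscle score (0.916), the rod score (0.892) and the score of other neural retina (0.886) were also high, with a rod score of 9.63 against 2.83 to 3.56. Cd68 in wild type with hydroquinone stood out in replicate 4 (0.971), at 6.61 against 5.75 to 5.78. The oligodendrocyte score in wild type with hydroquinone was high in replicate 1 (0.862), and the neutrophil score in knockout with hydroquinone was high in replicate 3 (0.830), at a level of 0.85 that is low for any list. The causes were not tested.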

How the results depend on the processing

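In each of the alternatives that gave a fit (29 or 30 a comparison), 0 of the 10 genes were called for hydroquinone in wild type (lowest adjusted p 0.698 over the alternatives), in knockout (0.116) or averaged over genotype (0.115), for knockout under hydroquinone (0.659) or for the interaction (0.941). Cd209a counts among these 10 as a description only, except for knockout under hydroquinone. DESeq2 called 1 further macrophage gene, Ccl8, for hydroquinone in wild type (adjusted p = 0.00359) and averaged over genotype (0.00659), where edgeR called 0. The number of the 10 genes lower in untreated knockout, 7, was 2 in libraries without a letter, 3 without untreated knockout replicates 3 and 4 (an alternative chosen after seeing the data) and 3 relative to the pan-macrophage genes, and it ran from 2 to 10 when 1 library was left out, with 10 without untreated knockout replicate 1, 2 without untreated wild-type replicate 2, 4 without untreated knockout replicate 3 and 3 without untreated knockout replicate 4. The causes were not tested. The median r of 45 pairs, 0.44, became 0.78 in libraries with a letter and 0.22 in those without, each with at most 3 libraries a group. Of 1839 fold changes of single genes under an alternative, 65 moved by more than 1 SD between libraries. With only the untreated and treated knockout in the fit, Cd209a was below the minimum of 1 CPM and gave no value. No paired analysis was possible because replicate numbers follow accession order and mice are nested in groups. With 2 untreated wild-type mice and 10 to 78 counts a library for Cd209a, small differences were not detectable at this depth.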
